A study of Mus musculus with 106 samples.

Results

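The genes described here are 37 mouse genes of cholesterol and fatty acid synthesis, chosen by name from 21938 protein-coding genes. They are 7 genes of the mevalonate steps (Hmgcs1, Mvk, Pmvk, Mvd, Idi1, Fdps and Acat2), 11 genes of the later sterol steps (Fdft1, Sqle, Lss, Cyp51, Tm7sf2, Msmo1, Nsdhl, Hsd17b7, Ebp, Sc5d and Dhcr7), 11 genes that make, elongate or desaturate fatty acids (Acly, Acaca, Acacb, Fasn, Scd1, Scd2, Elovl1, Elovl5, Elovl6, Fads1 and Fads2) and 8 regulators (Srebf1, Srebf2, Scap, Insig1, Insig2, Nr1h2, Mylip and Ch25h). Their promoters, taken as 1000 bp either side of any annotated start site on GRCm38, were read in 70 peak lists, 35 for acetylated lysine 27 of histone H3 (H3K27ac, a mark of active promoters and enhancers) and 35 for trimethylated lysine 4 (H3K4me3, a mark of promoters).

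The study asked whether hyperglycemia leaves marks in the chromatin of bone marrow cells that macrophages grown from them still carry in physiological glucose. All animals were C57BL/6J mice aged 12 to 14 weeks. Diabetic mice had received streptozotocin, a toxin of insulin-producing β cells, at 42 to 45 mg/kg on 5 days, had a blood glucose above 13.9 mmol/L and were used 6 weeks later, and control mice had not been made diabetic. Cells labelled HSC were bone marrow from which cells carrying lineage markers, the erythroid marker Ter119 among them, had been depleted, so that they hold stem cells together with other progenitors. Bone marrow-derived macrophages (BMDM) had grown for 7 days in 5 mmol/L glucose with L929 conditioned medium and then received medium only (unstimulated) or 100 ng/mL LPS with 10 ng/mL IFN-γ for 16 hours (LPS+IFN-γ). Each of the 6 groups of a mark had 6 libraries, except unstimulated diabetic BMDM with 5. The study counts n in individual animals, but the labels do not tie libraries to animals, so p-values measure the spread between these libraries.

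Cells make cholesterol from acetyl-CoA through mevalonate, squalene and lanosterol, and fatty acids from malonyl-CoA by fatty acid synthase. The transcription factors SREBP-2 (Srebf2) and SREBP-1 (Srebf1) turn on the genes of both routes when SCAP escorts them out of the endoplasmic reticulum, and INSIG proteins hold that complex back while sterols are plentiful. Oxysterols, which the enzyme encoded by Ch25h can make, activate liver X receptors such as LXRβ (Nr1h2), and these induce Srebf1 and Mylip. In macrophages the pathway is best known for its link to interferon responses and to cholesterol loading.

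The measure used throughout is the percentile of a gene's promoter. In each list, genes were ranked by the −log10 p of their strongest promoter peak, genes with no promoter peak shared the lowest rank, and the rank was scaled from 0 to 100, so that 90 means a promoter mark stronger than that of about 90% of protein-coding genes in the same list. A percentile compares genes within a library and is no absolute amount of the mark. The lists held 13730 to 277213 peaks. The number of reads behind them is unknown, so no value has a counting interval. H3K4me3 lists of control HSC were shorter (37378 to 109214 peaks) than those of control unstimulated BMDM (81003 to 212718 peaks). The HSC label was checked on marker lists: 6 of 9 stem and progenitor genes had a higher H3K27ac percentile in HSC than in unstimulated BMDM, and 4 of 9 macrophage genes a lower one and 1 a higher one. All 5 erythroid genes were higher in HSC as well, with a median erythroid percentile of 46.6 to 65.2 in HSC libraries and 14.4 to 42.6 in unstimulated BMDM libraries. Over all genes tested, 31.1% passed this comparison in either direction. For neutrophil genes the median over libraries was 34.6 in HSC and 31.0 in unstimulated BMDM, and for lymphoid genes 32.6 and 26.4. In H3K4me3 it was 67.6 and 69.1 for stem and progenitor genes, and 17.6 and 28.4 for macrophage genes. In H3K27ac, 3 control libraries stood apart from their labels and are called libraries in doubt below. On 422 genes outside the pathway that passed the test of stimulation in diabetic BMDM, the mean percentile of the 179 genes that rose minus that of the 243 that fell was −30.6 to −22.7 in unstimulated diabetic libraries and 1.41 to 26.3 in stimulated ones. It was −23.9 to −5.80 in unstimulated control libraries 1 to 4, but 0.833 and −2.66 in libraries 5 and 6. It was −16.0 in stimulated control library 5 and −1.25 to 14.8 in the other stimulated control libraries. The genes were picked on the diabetic libraries, and the cause of these differences was not tested. Whether the labels of these libraries were exchanged was not tested either.

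Promoter sequences are shown for 5 members on which the comparisons turned. Lss, Elovl1, Ch25h and Idi1 had the largest differences among members that passed a test and whose RefSeq promoter window held at least 100 bases ahead of every annotated exon, and Insig1 was added after its values were seen because it passed in both cell-state comparisons of H3K27ac. The sequences are from the RefSeq table of GRCm38.p6, run 5′ to 3′ on the gene's strand and stop at the first annotated exon. Capitals mark 3 short motifs on either strand. The first is CCAAT, which on the other strand is printed as ATTGG. The second is GGGCGG, printed there as CCGCCC. The last, CACGTG, is the same on both strands.
Lss, chr10:76531355-76531587, plus strand: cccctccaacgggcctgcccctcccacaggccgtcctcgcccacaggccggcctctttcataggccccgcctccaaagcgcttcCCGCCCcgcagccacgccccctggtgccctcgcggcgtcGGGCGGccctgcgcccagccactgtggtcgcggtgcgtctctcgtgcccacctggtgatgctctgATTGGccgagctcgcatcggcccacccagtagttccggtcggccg
Elovl1, chr4:118427843-118428092, plus strand: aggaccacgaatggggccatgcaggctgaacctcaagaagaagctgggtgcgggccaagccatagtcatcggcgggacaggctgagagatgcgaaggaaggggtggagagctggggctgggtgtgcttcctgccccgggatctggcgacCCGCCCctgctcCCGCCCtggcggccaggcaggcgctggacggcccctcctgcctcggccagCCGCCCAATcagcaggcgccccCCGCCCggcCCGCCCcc
Ch25h, chr19:34475165-34475398, minus strand: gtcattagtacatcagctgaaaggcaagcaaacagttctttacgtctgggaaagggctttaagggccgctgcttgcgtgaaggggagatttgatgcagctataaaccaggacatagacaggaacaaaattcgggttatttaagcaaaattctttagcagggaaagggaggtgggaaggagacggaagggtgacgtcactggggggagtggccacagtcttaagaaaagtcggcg
Idi1, chr13:8885356-8885500, plus strand: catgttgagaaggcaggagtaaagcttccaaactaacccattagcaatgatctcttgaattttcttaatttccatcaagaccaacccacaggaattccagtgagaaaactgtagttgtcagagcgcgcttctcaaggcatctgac
Insig1, chr5:28071162-28071362, plus strand: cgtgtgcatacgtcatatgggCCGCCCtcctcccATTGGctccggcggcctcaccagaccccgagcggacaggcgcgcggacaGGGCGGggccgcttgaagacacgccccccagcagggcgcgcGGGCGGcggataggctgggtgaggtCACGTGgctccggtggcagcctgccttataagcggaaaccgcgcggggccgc
The Elovl1 sequence held GGGCGG 5 times, one of which overlapped its single CCAAT. Lss held GGGCGG 2 times and CCAAT once. Insig1 held GGGCGG 3 times, CCAAT once and CACGTG once. Ch25h and Idi1 held none of these letters in the stretch shown. Idi1 held CCAAT 2 times and GGGCGG 1 time over its full RefSeq window, which runs past this stretch, and Ch25h held neither there. Over the full RefSeq windows, which run from 250 bases before to 50 after a start, 31 of the 37 members matched. Where a member had several windows, the one nearest its median H3K27ac summit was taken. The protein-coding windows set against them were all those listed, with no such choice. What this choice does to the shares was not tested. CCAAT stood in 21 of the 31 (67.7%), against 37.8% of 20150 protein-coding windows, and GGGCGG in 23 (74.2%), against 47.8%. CACGTG stood in 5 (16.1%), against 8.03%. TCACNCCAC, the core letters of a sterol regulatory element, stood in 1 member, Hmgcs1 (3.23%), against 1.20%. The members' windows were also richer in G and C, with a median of 62.7% against 57.0% and a median of 21 CpG against 14. These are matches of letters, not measured binding.

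Nearly every one of these promoters carried both marks in every group. An H3K27ac peak stood at a member's promoter in 1284 of 1295 pairs of a member and a list (99.2%), against 67.0% over all protein-coding genes, and 32 of the 37 members had one in all 35 lists. An H3K4me3 peak stood in 1252 of 1295 pairs (96.7%), against 70.002%, and 15 members had one in all 35 lists. Over all protein-coding genes, 47.0% had an H3K27ac peak in all lists and 36.9% an H3K4me3 peak.

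The missing H3K27ac peaks fell on 5 genes. Scd1, the stearoyl-CoA desaturase that makes monounsaturated fatty acids, had a peak in 30 lists and lacked one in unstimulated diabetic BMDM 1, 4 and 5, LPS+IFN-γ diabetic BMDM 5 and diabetic HSC 1. All 5 of these lists came from diabetic mice, and 4 of them were short, with 52470 to 72333 peaks. The H3K27ac lists of diabetic mice had fewer peaks than those of control mice in each state, with medians of 92673.5 and 130591 in HSC, 105751 and 132443 in unstimulated BMDM, and 93501.5 and 129022 in LPS+IFN-γ BMDM. The part of list length in the missing peaks was not tested. Nsdhl, a sterol dehydrogenase of the demethylation steps, had a peak in 32 lists. Pmvk (phosphomevalonate kinase), Hsd17b7 (a sterol 3-ketoreductase) and Ch25h had one in 34 lists each. Of the 43 missing H3K4me3 peaks, 19 fell in a single list, diabetic HSC 6, which was also the shortest with 13730 peaks. Nsdhl had an H3K4me3 peak in 29 lists, Hsd17b7 in 31, and Msmo1, Pmvk and Scd1 in 32 each. Acacb, Acat2, Dhcr7, Fdft1, Fdps, Lss and Mvd had one in 33 lists, and Ch25h, Cyp51, Ebp, Fads1, Fasn, Idi1, Insig2, Scd2, Sqle and Tm7sf2 in 34.

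**Figure D1:**
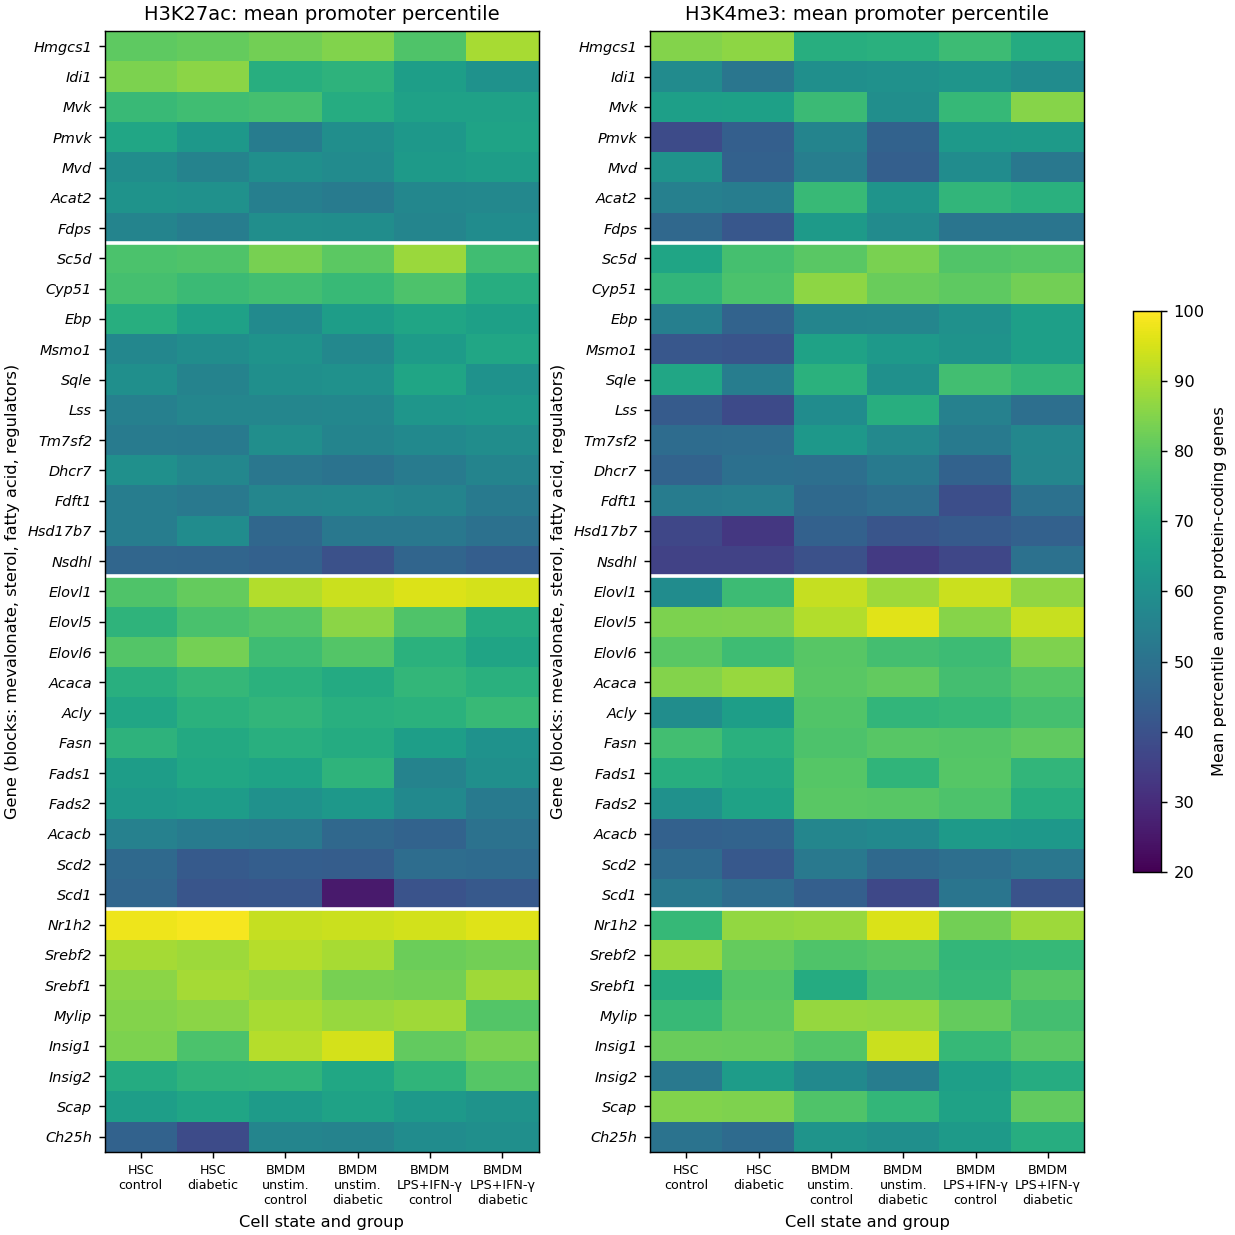
Heat maps of the mean promoter percentile (0 to 100, color) of the 37 members (rows, in blocks by role) in the 6 groups of each mark (columns). Over all H3K27ac lists the regulators have the highest median of the roles, 85.4, with single genes from 52.3 (Ch25h) to 95.8 (Nr1h2). Scd1, Nsdhl and Scd2 are the lowest genes in H3K27ac, and Nsdhl, Hsd17b7 and Scd1 in H3K4me3.

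Over all lists together, the regulators ranked highest and the sterol enzymes lowest. The median over members of the mean H3K27ac percentile in all lists was 85.4 for the 8 regulators, 67.6 for the 11 fatty acid genes, 62.1 for the 7 mevalonate genes and 58.3 for the 11 sterol genes. The same order held for H3K4me3, at 78.4, 73.6, 58.4 and 54.3. The order was not the same in every state. The H3K4me3 median of the fatty acid genes was 77.8 in unstimulated and 75.9 in LPS+IFN-γ BMDM, against 77.1 and 75.0 for the regulators, and in LPS+IFN-γ BMDM the H3K27ac median of the mevalonate genes was 64.1 against 62.8 for the fatty acid genes. These medians describe the lists of genes chosen and were not tested against each other. Highest in H3K27ac were Nr1h2 (mean percentile 95.8), Elovl1, an elongase of very long saturated chains (88.9), and Srebf2 (87.1), and lowest were Scd1 (39.9), Nsdhl (44.7) and Scd2, the second desaturase (45.8). Highest in H3K4me3 were Elovl5, an elongase of polyunsaturated chains (88.9), Nr1h2 (85.5) and Elovl1 (82.5), and lowest were Nsdhl (38.9), Hsd17b7 (40.5) and Scd1 (45.8). Across the 37 genes, the mean percentiles in the 2 marks went together, with a Pearson correlation of 0.835 given as a description, since both rest on one set of promoters with shared base composition.

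Among the sterol sensors and their partners, Srebf2 had a mean H3K27ac percentile of 88.7 ± 4.29 in HSC (SD, n=12), 90.4 ± 6.66 in unstimulated BMDM (n=11) and 82.4 ± 4.89 in LPS+IFN-γ BMDM (n=12), and Srebf1 had 87.7 ± 7.41, 85.8 ± 5.45 and 85.8 ± 8.72. Scap stood lower, at 65.9 ± 7.35, 65.0 ± 5.11 and 62.1 ± 8.35, and its H3K4me3 percentile was 84.7 ± 13.2, 75.7 ± 15.1 and 73.5 ± 15.9. Insig2, which like Insig1 retains SCAP, had an H3K27ac percentile of 70.6 ± 4.86, 70.3 ± 9.75 and 75.7 ± 9.52. Mylip, the ubiquitin ligase that lowers lipoprotein uptake, had 85.6 ± 5.43, 88.7 ± 6.20 and 83.6 ± 9.83. With all libraries, none of these 5 regulators passed a test of cell state or stimulation in either mark, and the groups overlapped for each.

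Whether the pathway's promoters differ between marrow progenitors and macrophages was asked first with H3K27ac. Of the 37 members, 4 were higher in HSC than in unstimulated BMDM (Idi1, Scd1, Dhcr7 and Nr1h2) and 3 were lower (Ch25h, Elovl1 and Insig1). These 7 members were 18.9% of the list, whereas 31.1% of the 16981 genes tested passed (limma, Benjamini-Hochberg adjusted p below 0.05 over all genes, both disease groups weighted equally), so the share of members that passed lay below that of all genes. The median difference over members was 0.49 percentile points against 0.30 over all genes. By role, 1 of 7 mevalonate genes, 1 of 11 sterol genes, 2 of 11 fatty acid genes and 3 of 8 regulators passed.

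The largest difference was that of Ch25h, cholesterol 25-hydroxylase, which makes 25-hydroxycholesterol. Its H3K27ac percentile had a lowest, median and highest value of 40.5, 44.6 and 52.1 in control HSC and 21.6, 40.0 and 48.3 in diabetic HSC. In unstimulated BMDM it was 53.4, 56.0 and 61.4 in control libraries and 62.7, 59.1, 53.9, 49.3 and 53.6 in the 5 diabetic libraries. All but 1 of the 11 macrophage libraries thus lay above all 12 HSC libraries. HSC were lower by 14.42 points (difference −14.42, SE 2.69, adjusted p=5.67e-05).

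Elovl1 was also lower in HSC, with a difference of −12.54 (SE 2.42, adjusted p=9.14e-05). Its percentile was 65.6, 78.5 and 90.9 (lowest, median, highest) in control HSC and 71.0, 82.2 and 88.5 in diabetic HSC. It was 84.3, 91.1 and 97.5 in control BMDM and 99.3, 91.1, 97.3, 88.9 and 91.6 in the diabetic ones. Only the upper end of the HSC libraries reached the macrophage range, with 8 of 12 below every macrophage library.

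Insig1, which retains the SREBP complex when sterols are high and is itself an SREBP target, differed by −12.23 (SE 2.79, adjusted p=0.000768). Its percentile was 80.7, 83.6 and 88.2 in control HSC and 71.8, 78.1 and 81.0 in diabetic HSC. In control unstimulated BMDM it was 79.0, 94.1 and 99.1, and in diabetic unstimulated BMDM 98.6, 82.4, 97.6, 95.7 and 99.1. Of the 11 macrophage libraries, 8 lay above all HSC libraries, and those that did not included control libraries 5 and 6, both in doubt.

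Idi1, the isomerase that turns isopentenyl into dimethylallyl diphosphate, went the other way, with a difference of 14.19 (SE 3.65, adjusted p=0.00254). Its percentile was 66.5, 88.8 and 92.9 in control HSC and 73.7, 88.4 and 94.0 in diabetic HSC, against 56.9, 68.4 and 85.1 in control BMDM. The diabetic BMDM libraries had 67.0, 87.5, 59.9, 76.3 and 68.1. The groups overlapped, with 6 of 12 HSC libraries above every unstimulated macrophage library.

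Dhcr7, which catalyzes the last reduction to cholesterol, was higher in HSC by 7.63 points (SE 2.34, adjusted p=0.0109). Its percentile was 55.9, 60.9 and 63.1 in control HSC, 54.0, 56.3 and 62.6 in diabetic HSC, 45.7, 52.5 and 57.2 in control BMDM, and 46.3, 52.9, 54.7, 50.5 and 47.6 in diabetic BMDM. Of the 12 HSC libraries, 7 lay above all macrophage libraries. A start site of Nadsyn1 lies within 2000 bp of one of Dhcr7, so a peak there can belong to both.

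Nr1h2, which encodes LXRβ, ranked near the top in all cells and was 5.26 points higher in HSC (SE 1.78, adjusted p=0.0215). Its percentile was 96.4, 98.2 and 99.6 in control HSC and 97.0, 99.5 and 99.9 in diabetic HSC, against 88.3, 93.3 and 96.6 in control BMDM and 90.8, 99.4, 81.6, 98.2 and 98.1 in diabetic BMDM. The call rested on diabetic unstimulated BMDM 4, the library at 81.6, and without it the adjusted p was 0.0718.

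Scd1 was 10.23 points higher in HSC (SE 3.72, adjusted p=0.0319). Its percentile was 35.5, 46.2 and 54.1 in control HSC, 17.7, 45.9 and 53.2 in diabetic HSC and 32.9, 42.0 and 45.5 in control BMDM. In diabetic BMDM it was 16.6, 40.1, 20.3, 17.3 and 33.9, where the 3 lowest are libraries with no Scd1 peak. The call was lost on leaving out any 1 of 10 libraries (unstimulated diabetic BMDM 1, 4 and 5, diabetic HSC 3, 4, 5 and 6, unstimulated control BMDM 4, and control HSC 1 and 4), with an adjusted p of at most 0.0680.

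Ch25h, Dhcr7, Elovl1, Idi1 and Insig1 passed on leaving out each of the 35 libraries in turn. Without the 3 libraries in doubt, 8 members passed against 29.4% of all genes. Nr1h2 no longer passed, while Elovl5 (difference −9.43, adjusted p=0.0275) and Acat2, the acetoacetyl-CoA thiolase that opens the mevalonate route (7.29, adjusted p=0.0376), then did. The part that the erythroid signal of HSC libraries has in these differences was not tested.

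**Figure D2:**
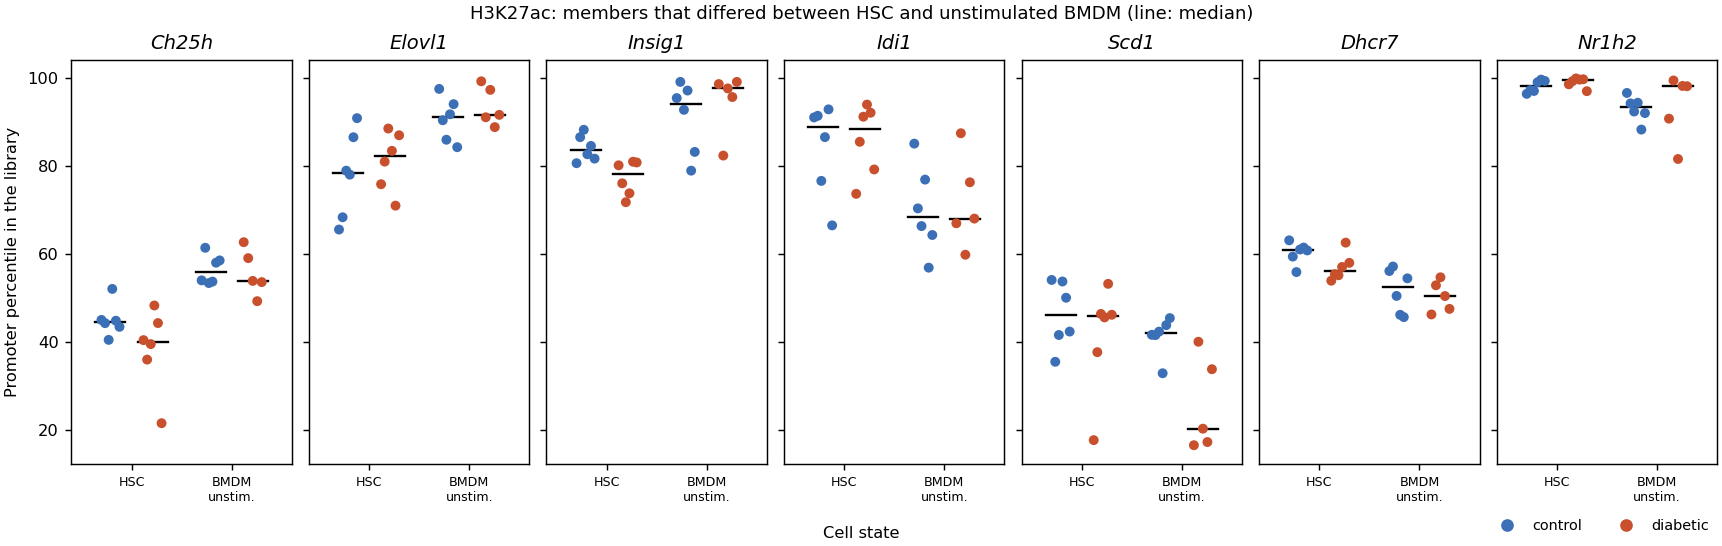
H3K27ac promoter percentile (0 to 100, vertical axis) of the 7 members that passed the comparison of HSC with unstimulated BMDM, one point per library, blue for control and red for diabetic, with a line at each group's median. Ch25h, Elovl1 and Insig1 sit lower in HSC, and Idi1, Dhcr7, Nr1h2 and Scd1 higher, with overlap in every panel.

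The response of macrophages to LPS+IFN-γ was asked next. In H3K27ac, 2 members passed and both fell, Insig1 and Fads1. They were 5.41% of the 37, against 2.39% of all genes tested. At an unadjusted p below 0.05 there were 12 members (32.4%) and 17.6% of all genes. The median difference was 0.69 over members and −0.20 over all genes. These values take both disease groups together. Within control BMDM alone, 0 of 16981 genes passed, and within diabetic BMDM 422 did, with 0 members in either. The test of whether the response differed between the disease groups passed in 0 genes.

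In unstimulated BMDM the percentile of Insig1 was 95.4, 99.1, 92.8, 97.2, 79.0 and 83.2 in control libraries 1 to 6 and 98.6, 82.4, 97.6, 95.7 and 99.1 in the diabetic libraries. After LPS+IFN-γ it was 70.4, 74.5, 84.7, 83.1, 93.5 and 78.3 in control libraries and 85.9, 73.1, 96.0, 74.0, 83.5 and 90.6 in diabetic ones. The mean was 92.7 ± 7.51 (n=11) before and 82.3 ± 8.41 (n=12) after, a difference of −10.60 (SE 2.79, adjusted p=0.0307). The ranges overlapped, with 5 stimulated libraries below every unstimulated one. The difference was −10.38 (SE 3.85) in control and −10.82 (SE 4.04) in diabetic BMDM. The 3 libraries in doubt included the 2 lowest of the unstimulated control group and the highest of the stimulated control group.

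Fads1, the Δ5 desaturase that makes arachidonic acid, differed by −11.34 (SE 3.24, adjusted p=0.0477). Its percentile was 61.6, 84.8, 65.0, 69.9, 58.4 and 57.8 in unstimulated control BMDM and 71.2, 64.5, 87.0, 69.8 and 67.1 in unstimulated diabetic BMDM. After LPS+IFN-γ it was 54.9, 58.7, 47.3, 53.8, 65.1 and 55.0 in control and 63.5, 55.1, 58.7, 57.5, 62.4 and 60.9 in diabetic BMDM. The mean was 68.8 ± 9.53 before and 57.7 ± 4.95 after, and 6 of 11 unstimulated libraries lay above every stimulated one.

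Neither call was stable to single libraries. Fads1 passed on leaving out 11 of the 35 libraries in turn (LPS+IFN-γ diabetic BMDM 5 and 6, unstimulated diabetic BMDM 2, diabetic HSC 4 and 6, LPS+IFN-γ control BMDM 5, unstimulated control BMDM 1, 5 and 6, and control HSC 4 and 5) and lost the call without any of the others, with an adjusted p of at most 0.106. Insig1 passed on leaving out 25 of 35, with an adjusted p of at most 0.0705, and lost the call without LPS+IFN-γ diabetic BMDM 2 or 4, LPS+IFN-γ control BMDM 1, 2 or 6, unstimulated diabetic BMDM 1, 4 or 6, or unstimulated control BMDM 2 or 4. No member passed without LPS+IFN-γ control BMDM 1 or without unstimulated control BMDM 4, where 236 and 246 of all genes did. Without LPS+IFN-γ control BMDM 5, one of the libraries in doubt, 3 members and 661 genes passed.

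Without all 3 libraries in doubt, 6 members passed and all fell, against 6.67% of all genes. Since these libraries were picked because they lay toward the other state on responding genes, leaving them out enlarges the contrast by construction, and the added calls are no independent support. They were Insig1 (difference −14.38, adjusted p=0.000700), Fads1 (−14.31, adjusted p=0.00764), Idi1 (−12.49, adjusted p=0.0255), Elovl5 (−12.43, adjusted p=0.0194), Srebf2 (−9.25, adjusted p=0.00951) and Fads2, the Δ6 desaturase (−8.50, adjusted p=0.0359). In the full set of libraries these last 4 had differences of −8.09, −8.88, −7.87 and −6.12, with adjusted p-values of 0.236, 0.153, 0.0609 and 0.180. Elovl6 (−8.02, adjusted p=0.112), Fasn, fatty acid synthase (−7.01, adjusted p=0.149), and Mvk, mevalonate kinase (−7.17, adjusted p=0.214), did not pass with all libraries. Neither did Msmo1, the sterol C4 oxidase (6.34, adjusted p=0.182), Scd1 (7.88, adjusted p=0.259) or Lss (5.33, adjusted p=0.277), whose values were higher after stimulation. Of 9 LPS and interferon response genes tested as a check of the stimulation, 2 rose.

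**Figure D3:**
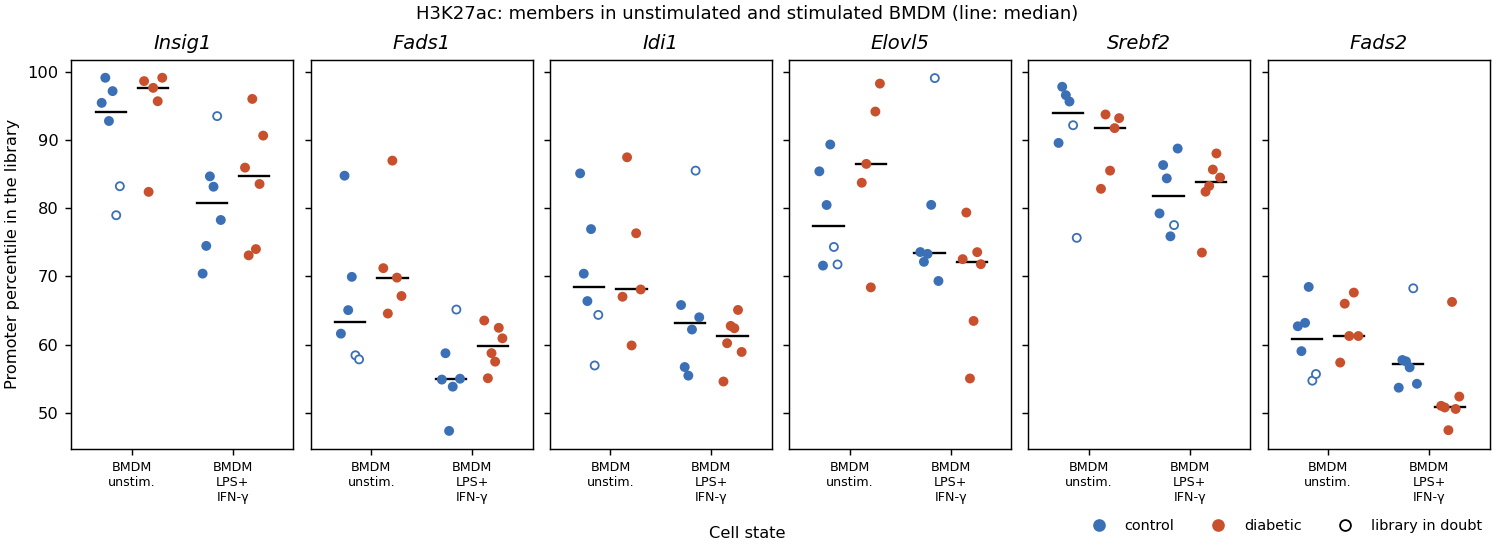
H3K27ac promoter percentile (0 to 100, vertical axis) of 6 members in unstimulated and LPS+IFN-γ BMDM, one point per library, blue for control and red for diabetic, hollow for the 3 libraries in doubt, with a line at each group's median. For Insig1 and Fads1 the stimulated libraries sit lower (means 82.3 and 57.7 against 92.7 and 68.8), and their hollow points lie toward the other state. Idi1, Elovl5, Srebf2 and Fads2 passed without the hollow libraries and not with all libraries.

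With H3K4me3, 5 members differed between HSC and unstimulated BMDM, all lower in HSC, namely Lss, Elovl1, Msmo1, Fdps and Fads2. They were 13.5% of the 37, against 17.0% of the 17255 genes tested. The difference was negative in 28 of the 37 members, and its median was −6.52 over members against −0.68 over all genes. The control HSC lists were shorter than those of control BMDM, as given above, and the part of list length in these differences was not tested. When a promoter was ranked among the peaks of its own list instead of among genes, the median of all genes was itself −9.54, 17 members passed and all were lower in HSC. In that ranking 26.0% of all genes passed, 4471 of 4494 of them lower.

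Lss, lanosterol synthase, which closes the first sterol ring system, had an H3K4me3 percentile of 35.5, 42.1 and 52.2 in control HSC and 19.9, 38.7 and 55.6 in diabetic HSC. It was 41.0, 58.4 and 79.9 in control BMDM and 79.3, 69.6, 81.7, 68.0 and 52.3 in diabetic BMDM. The difference was −24.04 (SE 4.91, adjusted p=0.000896), and 8 of 11 macrophage libraries lay above every HSC library. Only 4 of the 6 diabetic HSC lists held a peak at Lss.

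Elovl1 differed by −23.84 (SE 4.50, adjusted p=0.000459), with 45.5, 59.7 and 72.1 in control HSC, 56.1, 78.1 and 89.2 in diabetic HSC, 78.6, 95.1 and 100.0 in control BMDM and 98.6, 81.2, 86.9, 92.8 and 82.6 in diabetic BMDM. It was lower in HSC in both marks. The control HSC libraries all lay below the macrophage libraries, and the diabetic ones overlapped them.

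Msmo1 differed by −23.18 (SE 5.21, adjusted p=0.00208). Its percentile was 16.8, 44.0 and 56.3 in control HSC and 19.9, 40.7 and 65.6 in diabetic HSC, against 51.0, 67.0 and 76.4 in control BMDM and 59.7, 76.3, 65.9, 53.2 and 59.1 in diabetic BMDM. Of the 12 HSC libraries, 10 lay below all macrophage libraries. Only 9 of the 12 HSC lists held a peak at Msmo1, against all 11 lists of unstimulated BMDM.

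Fdps, farnesyl diphosphate synthase, differed by −16.62 (SE 5.95, adjusted p=0.0442), with means of 44.4 ± 7.55 in HSC and 61.3 ± 15.5 in BMDM. One control BMDM library reached 98.5. A start site of Gm43738 lies within 2000 bp of one of Fdps. Fads2 differed by −16.10 (SE 5.53, adjusted p=0.0361), with means of 63.3 ± 12.2 and 79.4 ± 8.90. The ranges of both genes overlapped between the cell states.

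Lss, Elovl1 and Msmo1 passed on leaving out each of the 35 libraries in turn, whereas Fads2 passed in 24 and Fdps in 21 of them, with adjusted p-values of at most 0.0774 and 0.0993. Fads2 lost its call without unstimulated diabetic BMDM 2 or 5, diabetic HSC 1, 2, 3 or 4, unstimulated control BMDM 3 or 6, or control HSC 2, 3 or 6. Fdps lost its call without unstimulated diabetic BMDM 1, 2 or 4, diabetic HSC 2, 3, 4 or 6, unstimulated control BMDM 1, 2 or 3, or control HSC 2, 3, 5 or 6. Without the 4 H3K4me3 libraries that earlier results had put in doubt, 4 members passed, Fads2 being lost, against 14.4% of all genes. Without diabetic HSC 6, the shortest list, 4 members passed as well. Of the 8 alternative settings described below, Lss, Elovl1 and Msmo1 each passed in 7, Fdps in 5 and Fads2 in 4. On fold enrichment only 1 member passed as lower in HSC, so most of these calls were lost there.

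Hmgcs1, the synthase that makes HMG-CoA, stood the other way, at 85.8 ± 10.6 in HSC (n=12) and 70.4 ± 9.30 in unstimulated BMDM (n=11), a difference of 15.38 that did not pass (adjusted p=0.0518). It passed with the replicate number as a block (16.45, adjusted p=0.0312), on fold enrichment (29.06, adjusted p=0.0129), with normal scores (adjusted p=0.0336) and without the filter on low values (adjusted p=0.0420). It did not pass when ranked among peaks, with a 500 bp window, with the 10000 strongest peaks or without the H3K4me3 libraries put in doubt. Among the regulators, Nr1h2 (−11.51, adjusted p=0.0859), Mylip (−10.34, adjusted p=0.150), Ch25h (−11.47, adjusted p=0.228) and Scap (9.26, adjusted p=0.256) did not pass.

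**Figure D4:**
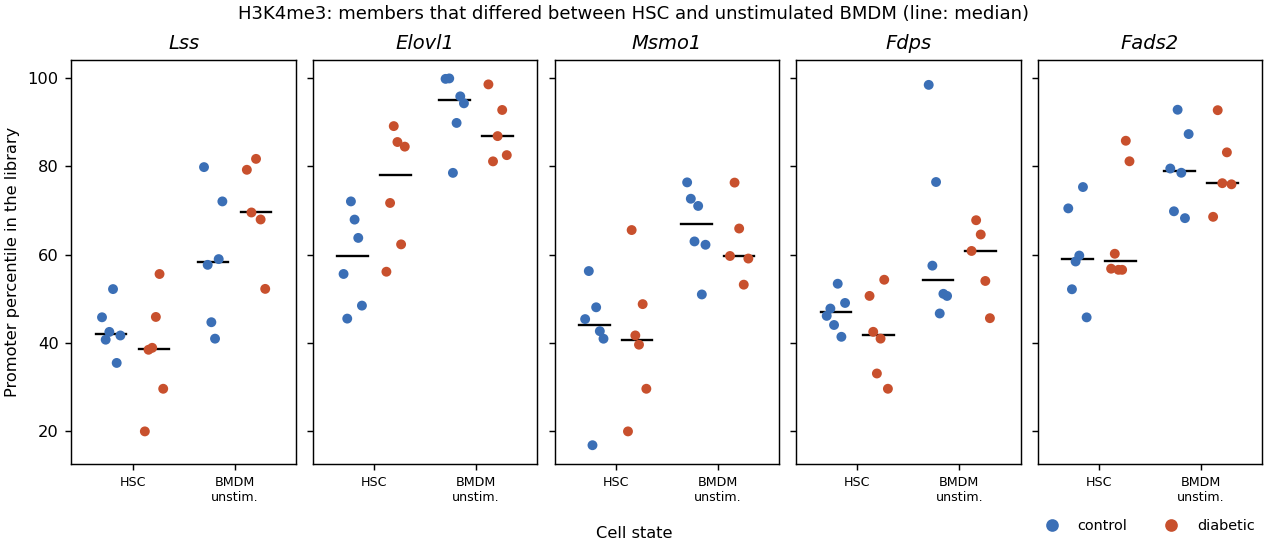
H3K4me3 promoter percentile (0 to 100, vertical axis) of the 5 passing members in HSC and unstimulated BMDM, one point per library, blue for control and red for diabetic, with a line at each group's median. Lss, Elovl1, Msmo1, Fdps and Fads2 sit lower in HSC, with differences of −24.04 (Lss) to −16.10 (Fads2) points, and their ranges overlap.

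No H3K4me3 difference with LPS+IFN-γ passed in limma, in members or in any gene (0%). At an unadjusted p below 0.05 there were 3 members (8.11%) and 967 genes (5.60%). The 3 members were Lss (−12.40, adjusted p=0.850), Mvk (12.40, adjusted p=0.851) and Insig2 (11.20, adjusted p=0.883). The H3K4me3 percentile of Insig1 was 85.5 ± 14.4 in unstimulated and 76.6 ± 15.3 in stimulated BMDM (−9.57, adjusted p=0.920).

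The comparison the study was built on, diabetic against control, gave no call in any cell state or mark in limma, either among members or among all genes (0% in all 6). A change shared by most promoters would not show in percentiles within a library. The paper reported more of both marks in diabetic HSC and BMDM on Western blots. It also reported more H3K27ac in diabetic HSC at promoters near regions that were more open in diabetic BMDM. At these promoters it described smaller H3K27ac differences in BMDM, and higher H3K4me3 in HSC with differences that remained in macrophages, also after stimulation. That comparison used average coverage, not ranks within a library. From ChIP-seq of both marks, the paper further described diabetic HSC and BMDM as clearly separable from control. With an unadjusted p below 0.05, H3K27ac gave 0 members (0%) and 339 genes (2.00%) in HSC. It gave 1 member (2.70%) and 989 genes (5.82%) in unstimulated BMDM, and 4 members (10.8%) and 807 genes (4.75%) in LPS+IFN-γ BMDM. H3K4me3 gave 2 members and 796 genes in HSC, 0 members and 691 genes in unstimulated BMDM, and 0 members and 888 genes in LPS+IFN-γ BMDM. A member's difference had a standard error of 2.46 to 5.96 points in H3K27ac and 5.98 to 10.1 points in H3K4me3, and differences of several standard errors did not pass either, as given next. The members' H3K27ac differences ran from −6.79 to 4.98 in HSC, from −15.69 to 7.40 in unstimulated BMDM and from −12.60 to 11.53 in LPS+IFN-γ BMDM, with medians of 0.61, −0.81 and 0.08.

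In H3K27ac, the members with an unadjusted p below 0.05 for disease were as follows, and none passed. Hmgcs1 after LPS+IFN-γ was 66.2, 75.6 and 90.8 (lowest, median, highest) in control and 83.6, 90.4 and 92.9 in diabetic BMDM (difference 11.53, SE 3.48, adjusted p=0.902). Sc5d, the lathosterol oxidase, was 77.7, 87.4 and 96.6 in control and 59.7, 78.0 and 84.8 in diabetic stimulated BMDM (−12.60, SE 3.98, adjusted p=0.911). The ranges of both overlapped. Scd1 in unstimulated BMDM was 32.9, 42.0 and 45.5 in control and 16.6, 40.1, 20.3, 17.3 and 33.9 in the diabetic libraries, of which 3 had no peak (−15.69, SE 5.38, adjusted p=0.800). Mylip (−9.99) and Cyp51, the lanosterol demethylase (−7.90), in stimulated BMDM had adjusted p-values of 0.988, as had Elovl5 there (−8.70), whose unadjusted p was above 0.05. In H3K4me3 the largest difference was that of Mvd, the mevalonate diphosphate decarboxylase, in HSC (−16.18, SE 8.91). Next came Elovl1 in HSC (15.99, SE 6.21), Mvk in unstimulated BMDM (−15.06, SE 8.19) and Insig1 in unstimulated BMDM (14.99, SE 7.59). Nr1h2 in HSC differed by 13.45 (SE 6.65). Each of these had an adjusted p of 1.00.

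**Figure D5:**
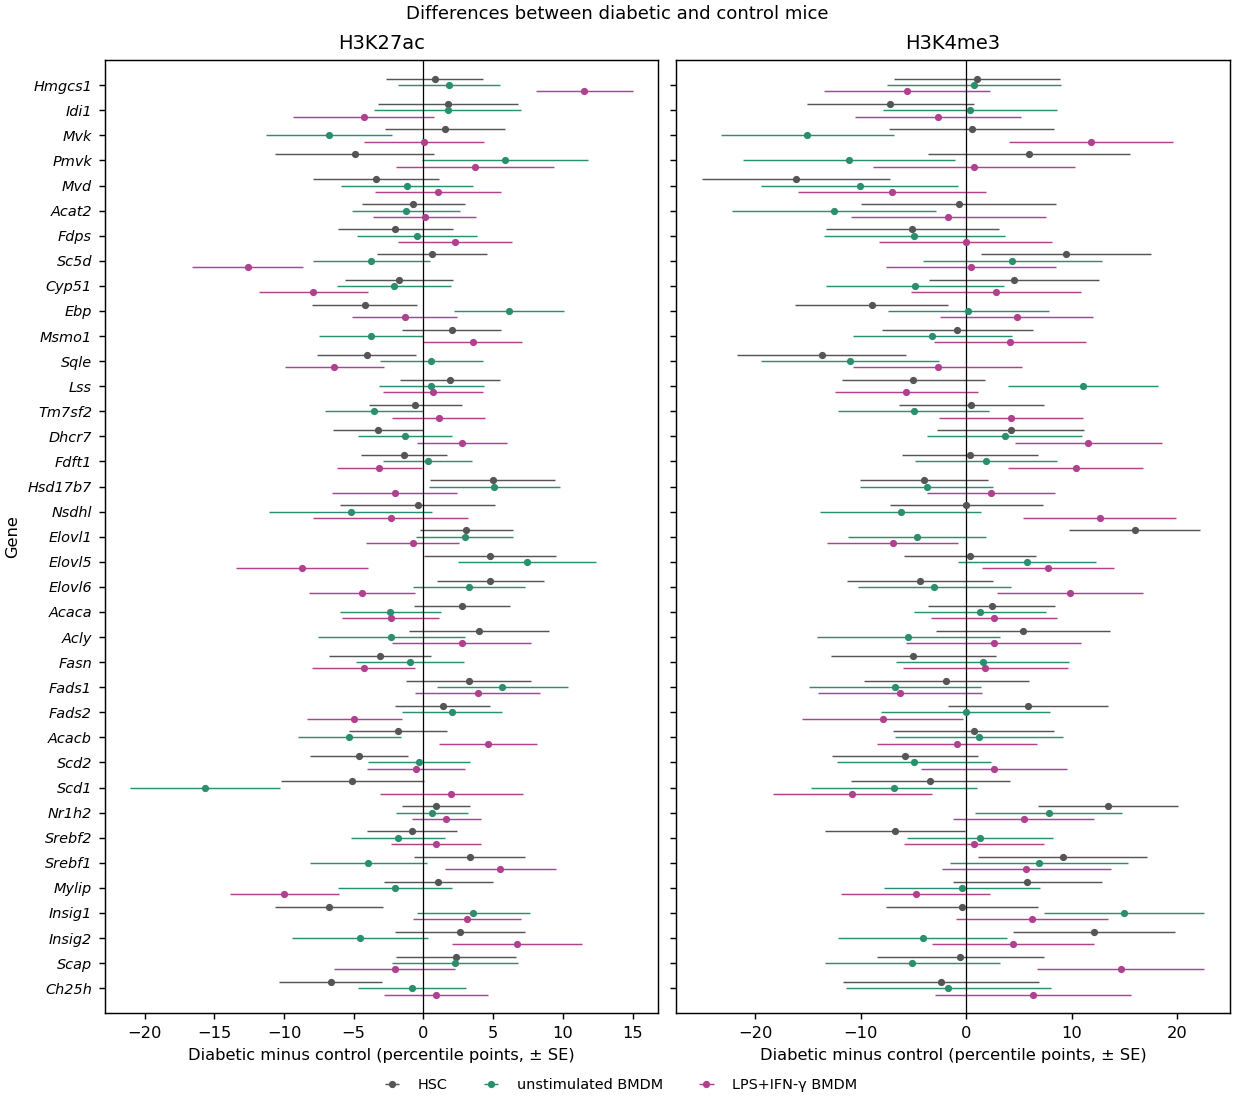
Difference in promoter percentile, diabetic minus control (points, horizontal axis), with its standard error as a bar, for the 37 members in the 3 cell states of each mark. The H3K27ac differences run from −15.69 to 11.53 and the H3K4me3 ones from −16.18 to 15.99, and none passed the test over all genes.

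Whether the step between cell states differed with disease was tested as an interaction, and no member passed in the 4 tests. In the response of H3K27ac to LPS+IFN-γ, 2 of 37 members and 1112 of 16981 genes had an unadjusted p below 0.05 in limma. They were Scd1, whose difference was 17.66 points larger in diabetic BMDM (adjusted p=0.729), and Elovl5, with −16.10 (adjusted p=0.744). In H3K4me3 the same test gave Mvk (26.88, adjusted p=0.991), and the test of HSC against BMDM gave Elovl1 (20.66, adjusted p=0.999). Of 17255 genes, 826 and 731 had an unadjusted p below 0.05 in these tests.

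Outside the list, 32 further genes of the pathways were all tested, and the shares of all genes that passed between HSC and unstimulated BMDM were the 31.1% of H3K27ac and 17.0% of H3K4me3 given above. In H3K27ac, 5 were higher in HSC than in unstimulated BMDM, among them Osbp, an oxysterol-binding protein (15.86, adjusted p=1.39e-05), Mbtps1, the site-1 protease that cuts SREBP (13.51, adjusted p=0.000154), and Acss2, an acetyl-CoA synthetase (11.45, adjusted p=0.000967). Lower were 4, led by Soat1, which esterifies cholesterol (−21.64, adjusted p=6.18e-07). After LPS+IFN-γ, 1 of the 32, the dehydratase Hacd4, rose (12.77, adjusted p=0.0233), where 2.39% of all genes passed. In H3K4me3, 2 of the 32 were higher and 5 lower in HSC, among the lower Hsd17b12, a reductase of chain elongation (−32.85, adjusted p=4.57e-06), and Soat1 (−23.03, adjusted p=0.00316). Of 15 genes of fatty acid oxidation, 3 were higher in HSC in H3K27ac and 0 lower, led by Etfdh, which passes electrons to ubiquinone (18.27, adjusted p=4.68e-06). In H3K4me3, 2 were higher and 1 lower. The H3K27ac shares of both groups of genes lay below that of all genes, and their H3K4me3 shares lay above it. Neither difference in share was tested. With stimulation, 0 of the 15 passed in limma in H3K27ac, and 2 had an unadjusted p below 0.05. Over all genes the shares were 2.39% and 17.6%.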

How the data were processed

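H3K27ac and H3K4me3 ChIP-seq had been run on 50 bp single reads. The submitters' processing notes name Trim Galore 0.3.3, cutadapt 1.8, Bowtie2 2.2.6, Picard, bedtools 2.19.1, MACS2 2.2.7.1 and GRCm38. The authors called peaks per library against its own input, and deposited for each peak a score, a fold enrichment ratio and −log10 p-values and q-values. Input libraries were not used here.

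For each library, 21938 protein-coding genes (GENCODE M21, 93513 start sites) were ranked by the highest −log10 p of a peak within 1000 bp of a start site, and the rank was turned into a percentile. Genes with a promoter peak in at least 5 of the 35 lists of a mark were tested, which included all 37 members in both marks. Differences were tested with limma 3.58.1 (R 4.3.3, trended variance, 6 groups per mark) and Benjamini-Hochberg adjustment over all genes tested, and the procedure was tested on simulated data. The design assumed this unit. No depth is given, so precision was taken from the spread between libraries only.

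Members, lists and the libraries to leave out were chosen with earlier results of these data known. Values are given for up to 6 passing members per comparison by size of difference (the seventh was added after its values were seen), the 3 highest and 3 lowest members, members without a peak in every list, and the 8 regulators. Sequences were to be printed for 4 members at most. Insig1 was added to them, Msmo1 and Fads2 were passed over because 36 and 7 bases of their windows lay ahead of an exon, and Fdps had no entry. Scd2, Fads1, Scd1, Fdft1 and Sqle also had none. Start sites of another gene lay within 2000 bp for 6 members (Mvk, Fdps, Tm7sf2, Nsdhl, Dhcr7 and Acaca).

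Alternatives were ranking on fold enrichment, normal scores, ranking among peaks, a 500 bp window, the 10000 strongest peaks, no filter, a replicate block, and leaving out libraries. Replicate numbers were not treated as pairs, since not every same-numbered pair deviated together.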

Additional observations from a re-analysis of the deposited data

Results flagged for a closer look

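In groups of 5 or 6 libraries, the highest or lowest library was set against the rest by its gap to the nearest other library over the group's range. Of 102 groups of values tested, 14 held such a library (8 of 24 summaries over the members and 6 of 78 single genes). Chance gives about 1 in 20 for continuous, normally spread values. Counts of members with a peak stop at 37, and where all other libraries hold 37, a library missing any peak is always flagged. The share flagged can therefore not be set against 1 in 20. For the count of members with a promoter peak, these were in H3K27ac diabetic LPS+IFN-γ BMDM 5 (35 of 37, nearest 37) and control unstimulated BMDM 5 (34, nearest 37), and in H3K4me3 diabetic LPS+IFN-γ BMDM 5 (34, nearest 36), diabetic HSC 6 (18, nearest 32), control LPS+IFN-γ BMDM 3 (35, nearest 37) and control HSC 2 (31, nearest 35). For the median percentile of the members, they were in H3K4me3 diabetic unstimulated BMDM 4 (74.0, nearest 64.5) and diabetic HSC 6 (29.6, nearest 58.0). In diabetic HSC 6 the value 29.6 is the shared lowest rank, since 19 members had no peak there.

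For single genes in H3K27ac, Nr1h2 stood apart in diabetic LPS+IFN-γ BMDM 1 (percentile 99.7, nearest 96.1) and in control LPS+IFN-γ BMDM 2 (81.7, nearest 94.6). Insig1 stood apart in diabetic unstimulated BMDM 2 (82.4, nearest 95.7). Idi1 (85.5, nearest 65.8) and Scd1 (33.7, nearest 40.0) stood apart in control LPS+IFN-γ BMDM 5, one of the libraries in doubt. Scd1 also stood apart in control unstimulated BMDM 4 (32.9, nearest 41.6).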

How the results depend on the processing

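The count of members that passed for HSC against unstimulated BMDM in H3K27ac was 7. It was 3 (all lower) when promoters were ranked among peaks, where 62.5% of passing genes were higher in HSC instead of 51.2%, and 11 (6 higher) with the 10000 strongest peaks, where 51.2% of all genes passed and 24.5% of these were higher. Of the 5 lower members there, Scd1, Scd2 and Nsdhl had no peak among the 10000 strongest of any list. Their value of −1.46 is the shift of the shared lowest rank and equals the median of all genes, so that no turn of Scd1 from 10.23 was measured. For LPS+IFN-γ in H3K27ac, where 2 members and 406 genes passed, it was 0 on fold enrichment (104 genes), among peaks (1 gene) and with the 10000 strongest peaks (106 genes), 1 with normal scores, a 500 bp window, no filter (308 genes) or the replicate block (276 genes), and 6 without the libraries in doubt (1132 genes). For HSC in H3K4me3, where 5 members and 2934 genes passed, it was 2 on fold enrichment (1 higher, 890 genes) and 17 among peaks (4494 genes, 0.512% higher in HSC instead of 42.6%). There, 4 members passed with the 10000 strongest peaks (1301 genes, 53.5% higher) and 6 without the filter (7727 genes, 72.0% higher). The causes were not tested.

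Leaving out single libraries gave 6 to 9, 0 to 3 and 3 to 6 members in these 3 comparisons and 0 in the others. Disease, its interactions and stimulation in H3K4me3 gave 0 members under every alternative run. The replicate block changed no other member count by over 1.5 times, while Hmgcs1 passed with it in H3K4me3. Between stimulated and unstimulated BMDM of one disease group, samples with the same number deviated together more than others, with a median correlation of 0.108 against −0.029 in H3K27ac and 0.095 against −0.029 in H3K4me3. However, only 6 and 5 of 11 such pairs were above 0.1, and with HSC the medians were −0.049 to 0.0073, so the numbers were not taken as pairs. Stimulated and unstimulated BMDM of different disease groups had medians of 0.097 with the same number against −0.017 in H3K27ac. In H3K4me3 these were 0.025 against −0.00022. For 2 stimulated libraries of different disease groups they were 0.077 against −0.020 in H3K27ac. What the numbers share was not tested. Values of single genes and medians of groups were counted in one tally, where 125 stayed the same, 35 lost the call, 3 moved and 1 reversed. For a single gene, staying the same means keeping direction and side of the threshold. The 3 that moved were group medians, not single genes. Ranks depend on list length, and the depth is unknown.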
